A study of Chlorocebus aethiops with 3 samples.

Results

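The mRNAs described here encode the aminoacyl-tRNA synthetases, listed as 15 RefSeq mRNA accessions for mitochondrial enzymes and 23 for cytosolic ones, with the complex proteins AIMP1, AIMP2 and EEF1E1 counted in the cytosolic set. They were listed by accession as members of 1 enzyme family or as its complex proteins. The list had no rule on a measured value, though earlier results of these data were known. Counts of synthetase accessions include the complex proteins. Of the 38 accessions, 35 had a probe, 14 of the mitochondrial set and 21 of the cytosolic set, among 32695 accessions on the array. NM_015836 of the mitochondrial set and NM_001751 and NM_002161 of the cytosolic set were not analysed here. The deposited tables list a probe's accession without a gene symbol, so single enzymes are called by accession and set, and which accession stands for which amino acid is not stated.

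An aminoacyl-tRNA synthetase joins 1 kind of amino acid to its tRNA, and the charged tRNA is then used by the ribosome. Animal cells keep largely separate sets of these enzymes for the cytosol and for the mitochondrion. The genes of both sets lie in the nucleus, and their mRNAs are translated on cytosolic ribosomes, from where the mitochondrial enzymes are imported. Several cytosolic synthetases are held together in a multisynthetase complex, for which AIMP1, AIMP2 and EEF1E1 act as non-enzymatic partners. Between them, the sets supply the elongating ribosomes of the cytosol and the mitochondrion, so growing cells in general express the mRNAs.

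The knockdown group was COS-7 cells, an SV40-transformed kidney line of Chlorocebus aethiops (African green monkey), transfected 2 times with siRNAs at 0.5 nM against the coding region of human RHA, at nucleotides 2701 to 2721 and 2784 to 2803 of NM_001357. RHA, or DHX9, is an RNA helicase that unwinds structured RNA and is known to aid the translation of selected mRNAs. The control group was COS-7 cells given scrambled siRNA in the same way. Both groups spent 4 hours in medium without serum at each transfection. RNA was taken 24 hours after the second transfection from the heavy polysome fractions of 15% to 45% sucrose gradients, which hold the mRNAs loaded with many ribosomes, and 3 biological replicates were hybridised, each as knockdown (Cy5) against control (Cy3) on 1 Agilent 2-colour array. No array had the dyes swapped, so a dye effect and the knockdown cannot be told apart, and siRNAs and probes were designed on human sequence for monkey cells. The line was not checked against cell type markers, because that needs gene symbols.

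Signals are normalized spot intensities that include an added offset of 50, and a log2 ratio is knockdown over control after loess normalization of each array. Probes entered the test when the same channel, either one, stood well above background on all 3 arrays; each accession was represented by its brightest probe, and a call is a limma adjusted p under 0.05 over all 18143 tested probes. The number of arrays limits the precision. The share of all probes detected well above background was 45.5% to 53.1% in knockdown channels, against 37.5% to 50.7% in control channels, with replicate 3 the brightest. The RHA message itself did not pass the test. Its brightest probe was at log2 ratios of -0.041 on replicate 1, -0.20 on replicate 2 and -0.60 on replicate 3 (adjusted p = 0.217). A second tested probe lay at -0.12, -0.12 and -0.76 (adjusted p = 0.210), so both were lower in knockdown cells on each array. The groups are therefore named after their labels, and whether the knockdown worked in these cells is not shown by the arrays.

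Synthetase mRNAs were readily measured in heavy polysomes. Of the 35 accessions with a probe, 31 passed the filter (88.6%), where 10820 of 18389 NM accessions did (58.8%). In the mitochondrial set 11 of 14 passed, and in the cytosolic set 20 of 21. The 4 that did not pass were NM_138395, NM_018122 and NM_020745 of the mitochondrial set and NM_005051 of the cytosolic set. Their probes were well above background in none of the channels, apart from 1 of 3 control channels for NM_018122, and their mean log2 ratios lay between -0.13 and 0.10 at these dim signals. All following counts are over the 31 that passed, which are not all members.

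Of the 31 tested synthetase accessions, 2 changed in heavy polysomes of knockdown cells. None rose and 2 fell, NM_152268 of the mitochondrial set and NM_001349 of the cytosolic set (limma). Among all tested NM accessions 9.84% rose and 10.2% fell, and in either direction 6.45% of synthetase accessions and 20.0% of NM accessions were called, a difference that was not tested. At an unadjusted p under 0.05, 6 of 31 lay above 0 (19.4%, against 18.1% of NM accessions) and 5 below (16.1%, against 19.1%). With both channels required well above background, 27 were tested, and 5 lay above 0 and 5 below at that p. Of all probes tested in this way, 2627 lay above 0 and 2723 below at that p. The count of risen accessions was between 0 and 6 over the 15 alternative settings, and that of fallen ones between 0 and 3, with 0 calls of either kind without replicate 2. It reached 5 risen and 1 fallen with a normexp offset of 0, with centring on the tested probes and with the authors' series value table, and 6 risen and 1 fallen with an intensity trend in the variance. Of all tested probes, 28.5%, 23.2%, 24.8% and 30.4% were called in either direction under these settings in turn, against 18.4% as reported. In bulk RNA, fewer cells holding a message and less of it per cell cannot be told apart, and a ratio in heavy polysomes moves with the abundance of an mRNA as well as with its ribosome load.

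**Figure D1:**
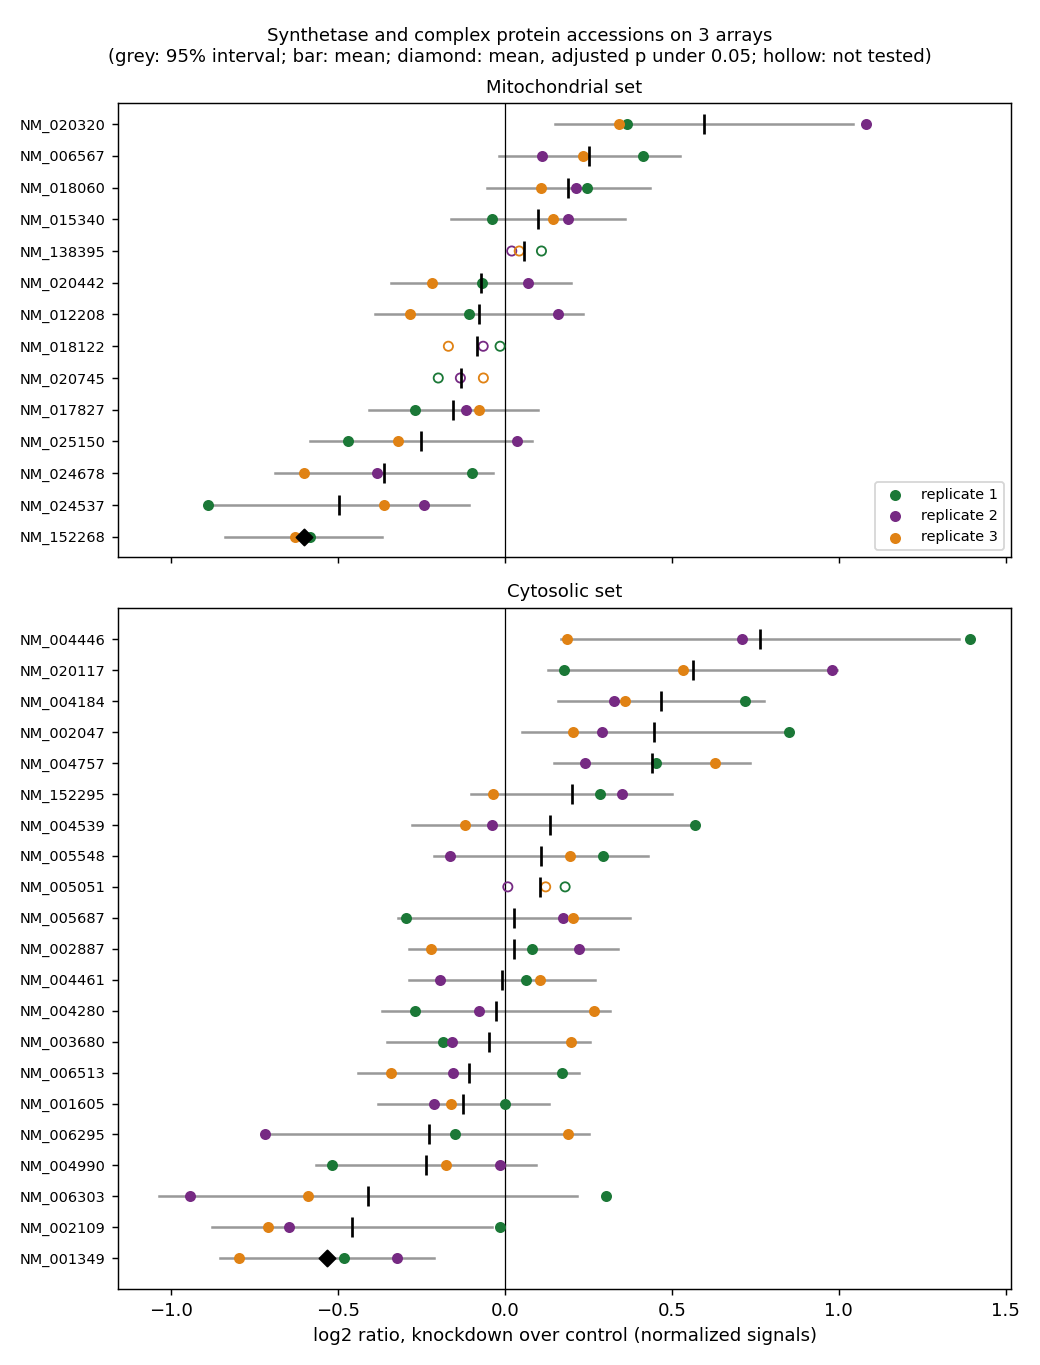
Log2 ratios of knockdown over control for the 14 mitochondrial (top) and 21 cytosolic (bottom) accessions with a probe, with 1 point for each array, a bar or diamond for the mean and a grey line for the 95% interval. The diamonds mark the 2 accessions that fell, NM_152268 and NM_001349, though centring each array on the median of all probes moved their means to -0.14 and 0.14, and all means lie between -0.60 and 0.76.

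NM_152268, a mitochondrial synthetase accession, fell to nearly the same extent on every array. Its brightest probe gave signals of 110.8, 126.1 and 313.3 in knockdown cells on replicates 1, 2 and 3, against 165.8, 190.6 and 484.0 in control cells. The knockdown signal was the lower on each array, while the ranges of the groups overlapped because replicate 3 was brighter in both channels. The log2 ratios were -0.58, -0.60 and -0.63 and averaged -0.60 ± 0.023 (SD, n = 3), so that the knockdown level was 0.659 times that of control cells (limma adjusted p = 0.0211). This was the smallest spread among the 31 accessions, whose SD had a median of 0.24. The call held in 13 of 15 alternatives. The exceptions were median centring, with a log2 ratio of -0.14, and leaving out replicate 2, with -0.60 and an adjusted p of 0.131.

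A second, dimmer probe of NM_152268 gave a smaller difference. Both channels of all arrays were well above background for it, with signals of 83.8, 84.5 and 156.4 in knockdown cells and 83.5, 98.5 and 183.0 in control cells. Its log2 ratios of 0.0051, -0.22 and -0.23 averaged -0.15 ± 0.13 (SD, n = 3), and it did not pass the test (adjusted p = 0.366). The second probe lay above the brightest one on each array, by 0.45 ± 0.12 (SD, n = 3) on the log2 scale. The size of the fall thus differed between the probes. The mean log2 signal was 6.77 for the second probe and 7.65 for the brightest. Agilent's processed log ratio has no added offset. By that ratio, on the log2 scale, the second probe averaged -0.66 and the brightest -1.06. The part of the added offset in the difference between the probes was not tested. Where the probes lie on the monkey mRNA was not tested either.

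NM_001349, a cytosolic accession, had signals of 502.3, 435.8 and 1230 in knockdown cells, against 700.4, 544.9 and 2134 in control cells. Knockdown was lower on 3 of 3 arrays, with log2 ratios of -0.48, -0.32 and -0.79. They averaged -0.53 ± 0.24 (SD, n = 3), so that the knockdown level was 0.692 times that of control cells (limma adjusted p = 0.0449). This call lay close to the threshold and was lost in 10 of 15 alternatives, among them leaving out any single replicate, with adjusted p of 0.0736, 0.140 and 0.118 without replicates 1, 2 and 3. Its log2 ratio turned to 0.14 with median centring. The accession has 1 probe.

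The remaining mitochondrial accessions did not pass the test. NM_020320 had the highest mean of this set. Its signals were 274.6, 291.0 and 503.9 in knockdown cells, against 213.2, 137.5 and 397.2 in control cells. Knockdown was the higher channel on each array, with log2 ratios of 0.37, 1.08 and 0.34 and a mean of 0.60 ± 0.42 (SD, n = 3; adjusted p = 0.0746), and replicate 2 stood apart from the other arrays. NM_024537 lay on the low side, with signals of 345.4, 323.0 and 1278 in knockdown cells and 638.8, 381.5 and 1641 in control cells. Its log2 ratios of -0.89, -0.24 and -0.36 averaged -0.50 ± 0.34 (SD, n = 3; adjusted p = 0.0838), the lowest value being on replicate 1. NM_024678 had signals of 104.1, 103.8 and 237.9 in knockdown cells and 111.5, 135.4 and 360.6 in control cells, and log2 ratios of -0.10, -0.38 and -0.60, with a mean of -0.36 ± 0.25 (SD, n = 3; adjusted p = 0.116). All 3 accessions had 1 sign on every array, and for each the spread between arrays was large beside the mean.

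The other 7 tested mitochondrial accessions had mean log2 ratios closer to 0. NM_006567, NM_018060 and NM_015340 were at 0.25, 0.19 and 0.10. NM_020442, NM_012208 and NM_017827 were at -0.072, -0.077 and -0.15, and NM_025150 at -0.25. Their limma adjusted p-values ran from 0.163 to 0.694. For NM_006567 2 of 3 control channels were above background, and for NM_017827 2 of 3 knockdown channels, so their ratios rest in part on dim spots. NM_006567 thus entered the test through the knockdown channels alone, and NM_017827 through the control channels alone.

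In the cytosolic set, the accessions short of the threshold with the largest mean log2 ratios in size lay above 0. NM_004446 had signals of 536.9, 418.6 and 597.6 in knockdown cells, against 204.2, 256.0 and 524.9 in control cells. Knockdown was higher on each array, by amounts that differed widely, with log2 ratios of 1.39, 0.71 and 0.19. Its mean of 0.76 ± 0.61 (SD, n = 3; adjusted p = 0.0824) was the highest of the 31 accessions, above 94.8% of tested NM accessions. Without replicate 1 it was 0.45, and without replicate 3 it was 1.05 and was called risen.

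NM_020117 had signals of 544.5, 450.1 and 1224 in knockdown cells, against 481.3, 228.4 and 846.0 in control cells. Its log2 ratios of 0.18, 0.98 and 0.53 were all above 0 and averaged 0.56 ± 0.40 (SD, n = 3; adjusted p = 0.0793). A second probe of this accession gave 0.30, 0.22 and 0.34 and averaged 0.29 ± 0.062 (SD, n = 3; adjusted p = 0.0996), so both probes lay above 0 on every array.

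NM_004184 was dimmer, at 128.1, 123.2 and 288.2 in knockdown cells against 77.8, 98.3 and 224.7 in control cells. Of its channels, 3 of 3 for knockdown and 2 of 3 for control were above background, so it entered the test through the knockdown channels alone. Its log2 ratios were 0.72, 0.33 and 0.36, with a mean of 0.47 ± 0.22 (SD, n = 3; adjusted p = 0.0552). Under alternatives it was called risen in 7 of 14, and its mean reached 1.23 with Agilent's processed log ratio, which has no added offset, whereas an offset of 50 pulls dim ratios toward 0. NM_004446 was likewise called in 7 of 15 alternatives, NM_020117 in 5, NM_020320 in 4 and NM_004757, whose mean was 0.44, in 3.

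**Figure D2:**
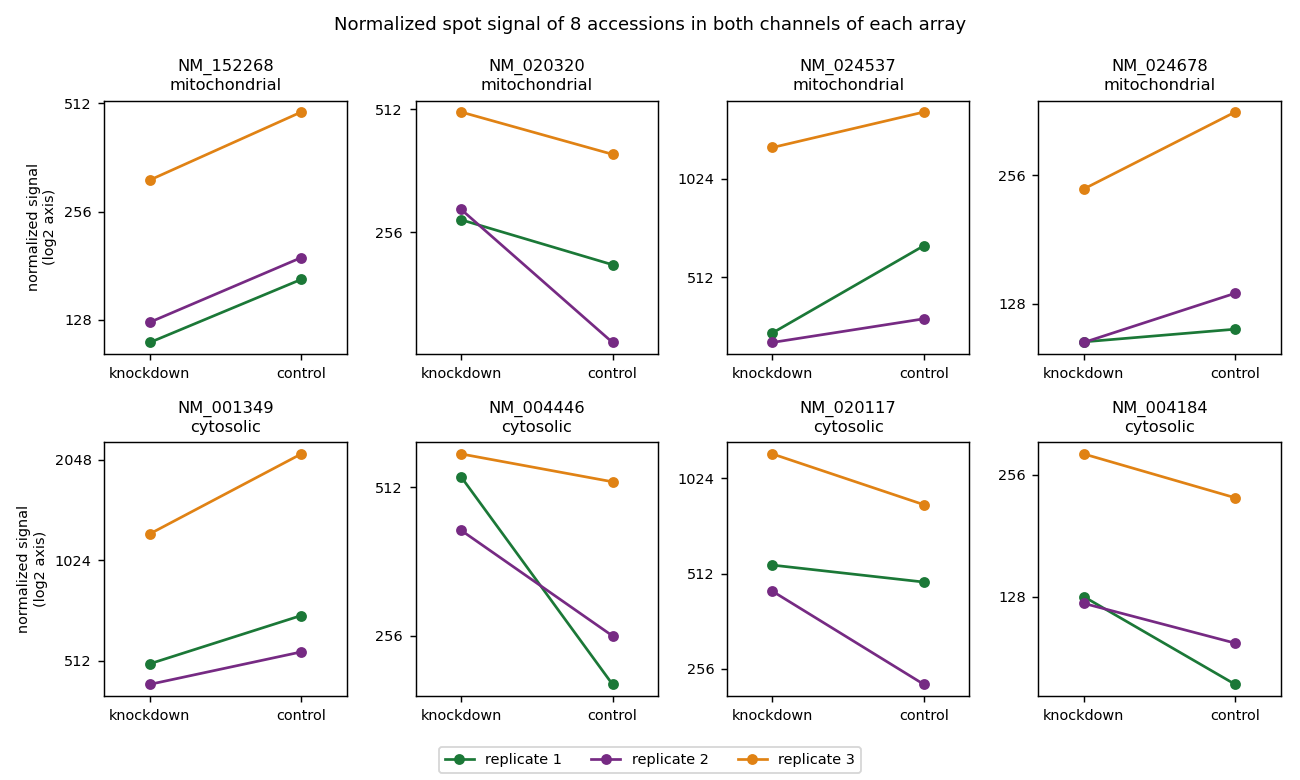
Normalized signals (log2 axis, offset of 50 included) of 8 accessions in knockdown and control channels, with lines joining the channels of an array. NM_152268 and NM_001349 were called fallen under the loess normalization shown, NM_001349 lying above 0 with median centring, and the other 6 were not called; the 3 lines of NM_152268 run nearly parallel, while those of NM_004446 and NM_020320 differ in slope between arrays.

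The rest of the cytosolic set stayed short of the threshold in both directions. NM_002047 and NM_004757 lay above 0 on all arrays, with mean log2 ratios of 0.45 and 0.44 (adjusted p = 0.109 and 0.0577). NM_152295, NM_004539, NM_005548, NM_005687 and NM_002887 had means between 0.027 and 0.20. For NM_005548 2 of 3 control channels were above background. It entered the test through the knockdown channels alone, and its ratio rests in part on dim spots. NM_004461, NM_004280, NM_003680, NM_006513, NM_001605, NM_006295 and NM_004990 had means between -0.24 and -0.0080.

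NM_006303 and NM_002109 were lower still, at -0.41 and -0.46, with adjusted p of 0.297 and 0.119. NM_006303 had the largest spread of the 31, with log2 ratios of 0.30, -0.94 and -0.59, so replicate 1 opposed the others. Both were called fallen without replicate 1, with log2 ratios of -0.77 and -0.68. NM_002109 was low with both of its probes: the brightest gave -0.014, -0.65 and -0.71, and the second gave -0.19, -0.95 and -0.75, with a mean of -0.63 ± 0.39 (SD, n = 3; adjusted p = 0.0585). On either probe, replicate 1 was nearest to 0.

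None of the 31 had a mean log2 ratio of 1 or more in size, which 4.98% of tested NM accessions did. For 28 of 31 the 95% interval lay within 2-fold in both directions, as it did for 83.9% of tested NM accessions, and these intervals are for single probes, not adjusted for their number. The 3 whose interval reached 2-fold were NM_020320, with 0.15 to 1.04, NM_004446, with 0.17 to 1.36, and NM_006303, with -1.04 to 0.22. An interval within 2-fold does not show that the level was the same.

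The arrays disagreed on the sign for about as many accessions as they shared it. Of the 31, 8 lay above 0 on every array, 7 lay below on every array, and 16 had mixed signs. A shared sign was thus seen for 48.4%, where it was seen for 58.8% of tested NM accessions. The median SD between arrays was 0.24 for the synthetase accessions and 0.20 for NM accessions, on the log2 scale.

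With loess, the difference between the mitochondrial and cytosolic sets was smaller than its spread between arrays, which did not hold with median centring or without replicate 2. On replicates 1, 2 and 3 the median log2 ratio was -0.099, 0.071 and -0.22 in the mitochondrial set, against 0.13, -0.058 and 0.15 in the cytosolic set. The mitochondrial median was the lower on 2 arrays and the higher on replicate 2. The difference, mitochondrial minus cytosolic, was -0.22, 0.13 and -0.37. It averaged -0.15 ± 0.25 (SD, n = 3). Without replicate 2, the only array with a difference above 0, it averaged -0.30 ± 0.10 (SD, n = 2). Without replicate 1 it averaged -0.12 ± 0.35 (SD, n = 2) and without replicate 3 it averaged -0.048 ± 0.25 (SD, n = 2), both smaller than the spread. An exact sign-flip test on 3 arrays cannot go below p = 0.25 and was not used. The medians of the 3-array means were -0.077 in the mitochondrial set and 0.0094 in the cytosolic set, beside 0.0033 for all tested NM accessions. The members of each set ranged widely around these, from -0.60 to 0.60 in the mitochondrial set and from -0.53 to 0.76 in the cytosolic set.

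By counts, 1 of 11 mitochondrial (9.09%) and 1 of 20 cytosolic accessions (5%) was called, against 20.0% of tested NM accessions. At an unadjusted p under 0.05, 1 mitochondrial accession lay above 0 (9.09%) and 3 below (27.3%), while 5 cytosolic ones lay above (25%) and 2 below (10%). Among tested NM accessions 18.1% lay above 0 and 19.1% below at that threshold, and the difference between the sets was not tested. The 5 cytosolic ones above 0 include NM_004184, which passed the filter through its knockdown channels alone, where its signal was the higher. The probes of the sets also differed in brightness, with a median of the mean log2 signal of 7.28 in the mitochondrial set and 8.44 in the cytosolic set, and the part of brightness in these counts was not tested. With median centring in place of loess the medians were 0.37 in the mitochondrial set and 0.48 in the cytosolic set, where all tested probes had a median of 0.31. The difference per array was then -0.28 ± 0.046 (SD, n = 3). Median centring leaves any trend of the ratio with brightness in place. The part of the brighter cytosolic probes in this difference was not tested.

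**Figure D3:**
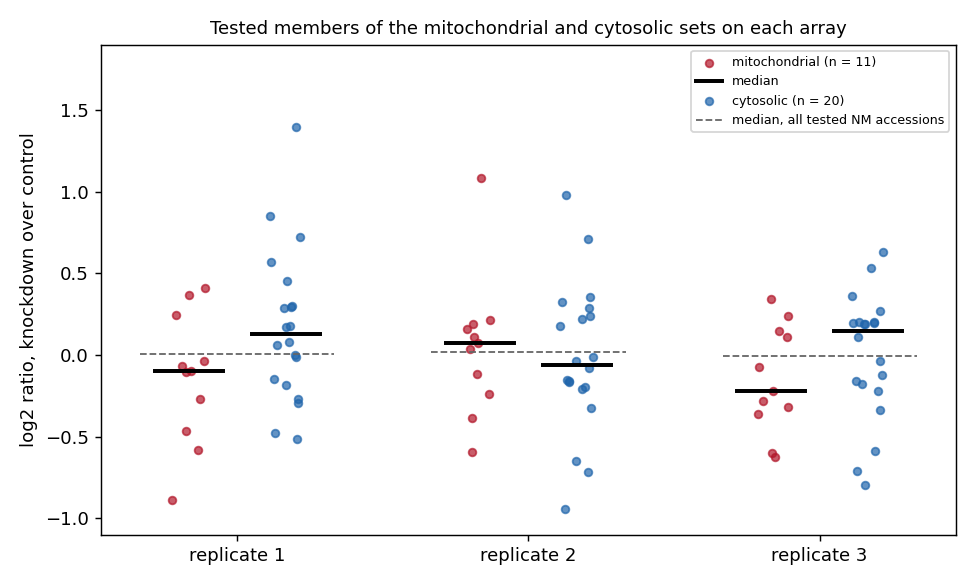
Log2 ratios of the 11 mitochondrial and 20 cytosolic accessions that were tested, by array, with a black bar for the median of each set and a dashed line for the median of all tested NM accessions. The points of the sets overlap on every array, and the mitochondrial median is below the cytosolic one on replicates 1 and 3 and above it on replicate 2.

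For 8 of the 35 accessions a second probe was on the array, and 6 of these second probes were tested. None of the 6 was called. In 4 of the 6 the mean had the sign of the brightest probe, as for NM_152268, NM_020117, NM_002109 and NM_005687. The signs differed for NM_004990, at -0.24 with the brightest probe and 0.042 with the second, and for NM_020442, at -0.072 and 0.030, and for both accessions the difference was smaller than its spread between arrays. NM_004757 could not be compared, since its second probe was well above background in none of the channels. The second probe of NM_024537 was not tested either, being well above background in 1 knockdown and 1 control channel. It lay below 0 on each array and averaged -0.18, against -0.50 for the brightest probe.

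**Figure D4:**
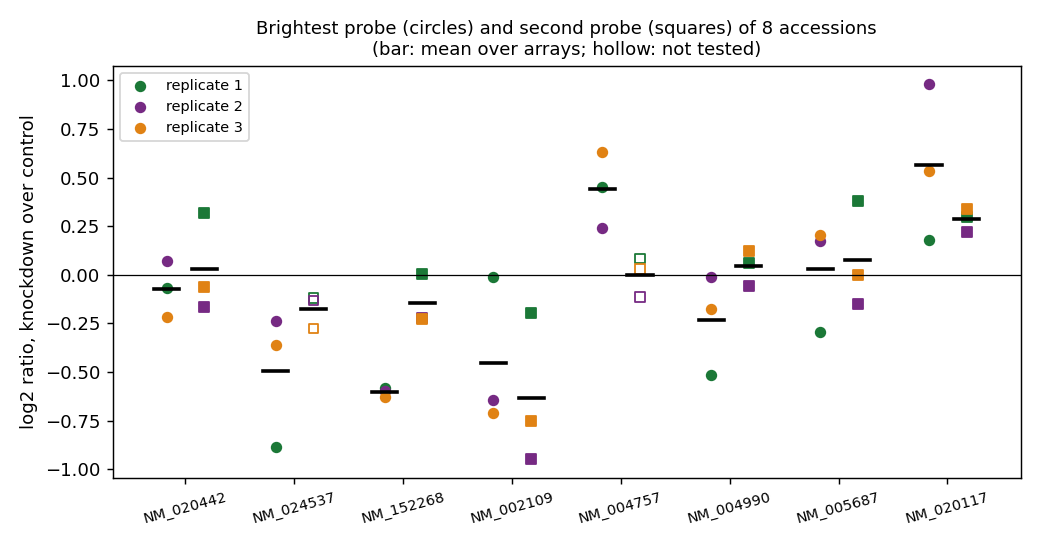
Log2 ratios of the brightest probe (circles) and the second probe (squares) of 8 accessions on each array, with a bar for the mean over arrays and hollow symbols for probes that were not tested. Both probes of NM_002109 lie below 0 and both of NM_020117 above 0 on each array, while the second probe of NM_152268 lies nearer to 0 than the first.

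**Figure D5:**
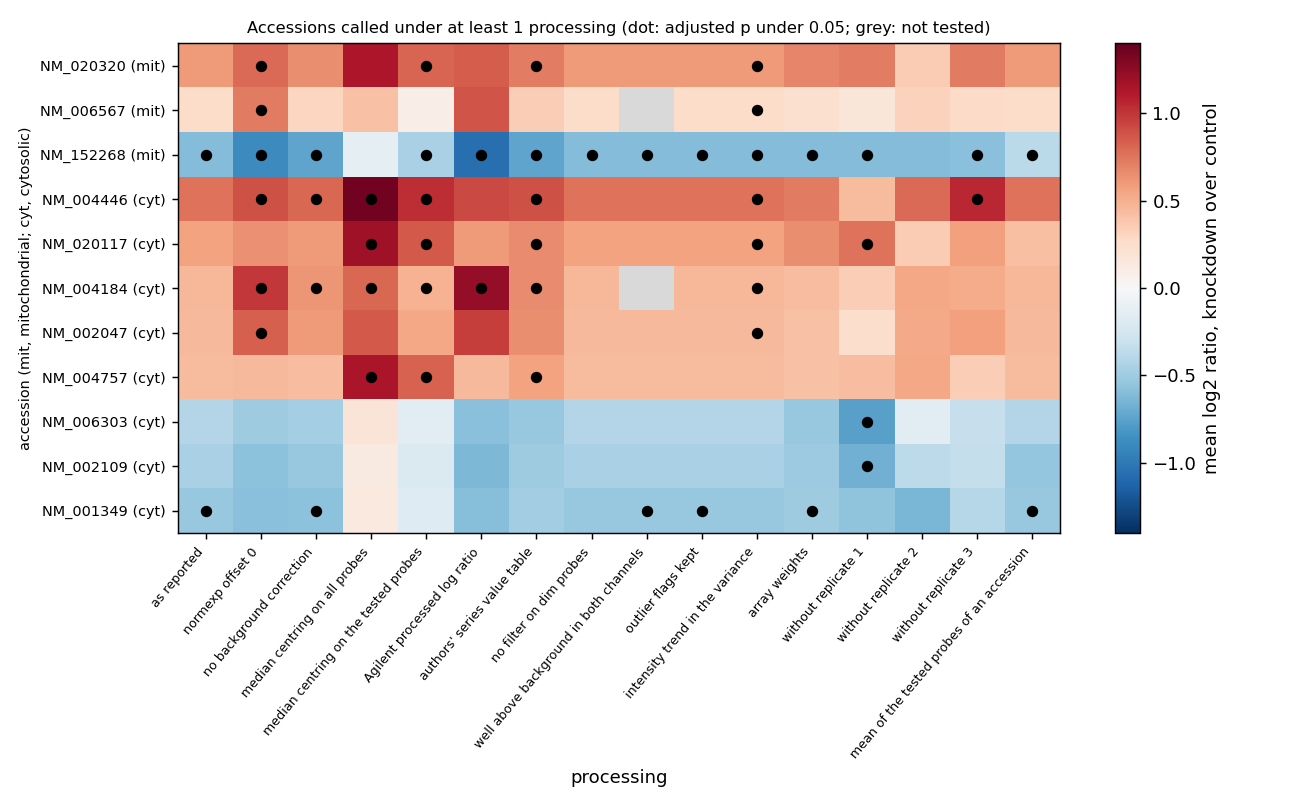
Mean log2 ratios (colour) of the 11 accessions called under at least 1 processing, by processing, with a dot where the adjusted p was under 0.05. NM_152268 has a dot as reported and in 13 of 15 alternatives, whereas the dots of the 7 accessions above 0 fall under some of the alternatives and none as reported.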

How the data were processed

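Per the file headers, the authors extracted spot intensity values with Agilent Feature Extraction 10.9.1.1 on design 014850. The deposited log10 ratio is that of processed Cy5 over Cy3 signals, and 31.1% of its values are 0. The value table that the authors deposited for the series gives log2 ratios, with scale, centring and direction unstated. Its medians were 0, 0.01 and 0.01, and it followed loess-normalized Cy5 over Cy3 with slopes of 1.06, 1.07 and 1.05, so it runs as knockdown over control.

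From median spot and background intensities, R 4.3.3 and limma 3.58.1 were used with normexp (offset 50), loess with control spots at weight 0, and no normalization between arrays. Outlier spots, 142 to 150 of 43376 per array, were left out, and spots of a probe were averaged. Log2 ratios were tested across all probes with lmFit and eBayes, 2-sided, with Benjamini-Hochberg adjustment. The test was checked on simulated data. Alternatives changed the background, normalization, filter, flags, variance model, weights, source and probe, and left out each replicate. An accession is represented by the probe with the highest mean log2 of both channels. Values on every array are given for called members and the 3 largest others of each set. Planned gene lists, markers and groupings by complex, class and amino acid needed gene symbols and were not computed. The members are accessions of an enzyme family and its complex proteins, and they and the lists were chosen with earlier results of these data known.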

Additional observations from a re-analysis of the deposited data

How the results depend on the processing

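Of 461 values of the 31 tested accessions under alternatives, 382 kept their sign and their side of the threshold, 32 passed it newly, 11 lost it with the sign kept and 36 changed sign. Of these 36, 1 also lost its call, NM_001349 with median centring. The count of risen accessions, 0 as reported, was 5 with a normexp offset of 0, 2 with no background correction, 4 with median centring, 5 with median centring on the tested probes, 1 with Agilent's processed log ratio, 5 with the authors' series value table, 6 with an intensity trend in the variance, and 0 to 1 when a replicate was left out. The count of fallen accessions, 2 as reported, was 0 with median centring and 1 each with a normexp offset of 0, median centring on the tested probes, Agilent's processed log ratio, the authors' series value table, no filter on dim probes and the intensity trend, and 0 to 3 when a replicate was left out, the 0 being without replicate 2. The mean over arrays of the difference of the medians, mitochondrial minus cytosolic, was below 0 in all 15 alternatives, from -0.30 without replicate 2 to -0.048 without replicate 3. The intensity trend and the array weights leave the ratios of each array unchanged, so they could only repeat the reported difference. All alternatives also reuse the same arrays, so their shared sign is not independent evidence. Without replicate 3, however, the medians of the array means were 0.0020 in the mitochondrial set and -0.027 in the cytosolic set. Over all probes, 1763 rose and 1569 fell. Risen probes numbered 2891 with a normexp offset of 0, 3604 with median centring, 3127 with median centring on the tested probes, 2809 with Agilent's processed log ratio, 1066 with no filter, 3001 with the intensity trend and 0 to 1502 without a replicate. Fallen probes numbered 58 with median centring, 997 with no filter, 2523 with the intensity trend and 0 to 1419 without a replicate. In either direction, 23.6% of tested probes were called with no background correction, 20.2% with median centring and 26.2% with Agilent's processed log ratio. Without replicate 2, where limma called 0 probes, an unadjusted p under 0.05 was reached by 2228 probes above 0 and 2010 below. Median centring moved the median of all tested probes to 0.31, against 0.018 with loess, and turned to above 0 NM_001349 (0.14), NM_001605 (0.096), NM_002109 (0.12), NM_003680 (0.25), NM_004280 (0.42), NM_004461 (0.39), NM_004990 (0.32), NM_006295 (0.32), NM_006303 (0.18), NM_006513 (0.55), NM_012208 (0.37), NM_020442 (0.64), NM_024537 (0.14), NM_024678 (0.014) and NM_025150 (0.12). Median centring on the tested probes turned NM_004280 (0.10), NM_004461 (0.076), NM_006295 (0.0056), NM_006513 (0.23), NM_012208 (0.050) and NM_020442 (0.33). NM_003680 was at 0.028 with no background correction and 0.017 with the authors' series value table. Leaving out replicates turned the sign of accessions near 0, with ranges of -0.070 to 0.15 for NM_002887, -0.17 to 0.021 for NM_003680, -0.17 to 0.095 for NM_004280, -0.066 to 0.085 for NM_004461, -0.080 to 0.27 for NM_004539, -0.061 to 0.19 for NM_005687, -0.43 to 0.021 for NM_006295, -0.25 to 0.0075 for NM_006513, -0.20 to 0.027 for NM_012208 and -0.14 to 0.0020 for NM_020442. What made the counts and signs differ between settings was not tested, the cause of the 0 calls without replicate 2 included. The test on ratios within arrays is itself paired, and no further block for the replicate could be added to a single group of 3 ratios.

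The limits of these values are the 3 arrays of 1 dye orientation, human probes for monkey RNA, and dim signals at which the offset pulls ratios toward 0. Total RNA was not analysed here.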
